A study of Homo sapiens with 24 samples.

Results

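The genes described here are SLC7A5 and 9 further amino acid transporter genes, measured in HK-2 cells, an immortalised line of human proximal tubule epithelium. They are SLC7A5, SLC3A2, SLC7A11, SLC38A1, SLC38A2, SLC38A3, SLC1A4, SLC1A5, SLC7A1 and SLC43A1, 10 of the 65180 gene IDs of the count table, found by Ensembl ID and symbol. All 10 passed the filter on low counts. They were chosen by measured values: SLC7A5 by its levels in the 4 groups without TGF-β1, SLC38A3 by its level with BAY, SLC7A11 by its level in hypoxia. The other 7 were listed beside them. Those comparisons, and the interactions built on them, are given for these 3 genes as values with no test.

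Poly(A) RNA was sequenced from 24 cultures in 6 groups after 24 h of treatment that followed overnight serum withdrawal. BAY 60-2770 (BAY below) is an activator of soluble guanylate cyclase, the nitric oxide receptor that produces cyclic GMP. The groups were hypoxia (0.3% oxygen) with BAY (n = 3), hypoxia with solvent (n = 3), normoxia with TGF-β1 and BAY (n = 5), normoxia with TGF-β1 at 2 ng/mL (n = 5), normoxia with BAY (n = 3) and normoxia with solvent (n = 5). The labels give the BAY dose as 1 mM, which is far above usual culture doses of such activators and may be a misprint of the unit, so every BAY effect belongs to an uncertain dose. Replicates are labelled biological, with no word on how the cultures were kept apart. The p-values therefore rest on the spread among cultures of 1 line.

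Amino acids cross the plasma membrane through families of carriers. SLC7A5 (LAT1) is the light chain of an exchanger that brings in leucine and other large neutral amino acids, and it reaches the membrane only when linked to the heavy chain SLC3A2 (CD98). Glutamine taken up by sodium-coupled carriers of the SLC38 and SLC1 families can be traded out by such exchangers. Leucine that enters this way feeds the kinase complex mTORC1, and cystine imported by SLC7A11, another partner of SLC3A2, feeds glutathione synthesis. In the proximal tubule, glutamine uptake also supplies ammonia production, for which SLC38A3 is known.

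Library totals ran from 78862528 to 105571250 estimated counts, so the spread between cultures, not counting, limited most values below. Of the proximal tubule markers PAX8 averaged 313 CPM (estimated counts relative to the library total, scaled by the TMM method over all libraries) and GGT1 166 CPM over the 24 libraries. LRP2 stood at 0.151 CPM, CUBN at 0.996 CPM and SLC22A6 was listed at 0, so 4 of 10 such markers passed 1 CPM. All 4 general epithelial markers passed 1 CPM, with KRT8 at 629 CPM. Normoxic solvent and both TGF-β1 groups fell into 2 subsets of libraries along a component that held 29.7% of the deviations from the group means. Subset 1 held solvent replicates 1, 2 and 5 and replicates 1 and 2 of both TGF-β1 groups, and subset 2 held the others. The labels name no batch for them, and values within a subset are given where they change a call.

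Promoter sequences are shown for SLC7A5 and SLC7A1, the members with the largest BAY effects in hypoxia after SLC38A3. Their windows, the 250 bases before the start in RefSeq on GRCh38.p14, lie wholly upstream of the gene as annotated, chr16:87869508-87869757 and chr13:29595689-29595938, both on the minus strand. Capitals mark TGACG, the core bound by CREB-type factors, the hypoxia response cores ACGTG and GCGTG, and the E-box CACGTG, which contains ACGTG.
SLC7A5: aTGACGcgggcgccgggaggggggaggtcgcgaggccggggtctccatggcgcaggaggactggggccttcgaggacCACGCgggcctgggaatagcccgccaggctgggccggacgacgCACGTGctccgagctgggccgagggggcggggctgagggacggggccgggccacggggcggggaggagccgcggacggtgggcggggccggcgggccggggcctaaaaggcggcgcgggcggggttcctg
SLC7A1: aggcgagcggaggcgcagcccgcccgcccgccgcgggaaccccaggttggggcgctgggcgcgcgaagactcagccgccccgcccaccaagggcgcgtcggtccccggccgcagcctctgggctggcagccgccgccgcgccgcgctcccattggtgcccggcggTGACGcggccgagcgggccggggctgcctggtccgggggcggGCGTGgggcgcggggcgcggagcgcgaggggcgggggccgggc

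Both strands were searched, and CACGC is GCGTG read on the other strand. The SLC7A5 window held TGACG from -249 to -245, GCGTG from -173 to -169 and the E-box from -130 to -125, counted from the start. The SLC7A1 window held TGACG from -85 to -81, GCGTG from -43 to -39, and a CCAAT box read as ATTGG, left in lower case, from -100 to -96. Of 35116 RefSeq promoter windows of this length, 21.2% held TGACG, 32.2% GCGTG, 18.5% ACGTG, 6.34% CACGTG and 32.0% CCAAT. A record was found for 8 of the 10 members, 15 starts in all, with SLC7A11 and SLC38A3 not among them. TGACG occurred before a start of SLC7A5, SLC3A2, SLC38A2 and SLC7A1, and the element TGATGNAAN bound by ATF4 with C/EBP factors before a start of SLC1A5 (3.13% of all windows). These are matches of letters and not measured binding.

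SLC7A5 (ENSG00000103257, chromosome 16, 87830023 to 87869488, GENCODE 29 on GRCh38) was highest in hypoxia with BAY, at 552, 569 and 621 CPM, against 157, 158 and 167 CPM in hypoxic solvent. In normoxia it stood at 65.5, 65.5 and 67.9 CPM with BAY, against 75.9, 74.3, 71.1, 71.1 and 75.5 CPM in solvent. BAY therefore accompanied a 3.60-fold higher level in hypoxia and a 0.913-fold level in normoxia, and neither pair of groups overlapped. The order of group means was hypoxia with BAY, TGF-β1 with BAY, hypoxic solvent, TGF-β1, normoxic solvent and normoxia with BAY, and only hypoxic solvent and TGF-β1, neighbours in that order, overlapped.

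The TGF-β1 comparisons were not used to choose SLC7A5. The normoxic solvent libraries were, so the test of TGF-β1 against solvent is not independent of that choice. SLC7A5 rose with TGF-β1, to 153, 149, 154, 159 and 157 CPM, against 73.6 ± 2.33 CPM in normoxic solvent (SD, n = 5; log2 fold change 1.07, SE 0.0362, edgeR adjusted p = 1.37e-14). TGF-β1 with BAY gave 204, 202, 188, 177 and 197 CPM, above every library with TGF-β1 alone (log2 fold change 0.33, SE 0.0357, edgeR adjusted p = 1.25e-06). The BAY effect thus stood at 1.85 on the log2 scale in hypoxia, 0.33 on TGF-β1 and -0.13 in normoxia. The pseudogene SLC7A5P2, which may share reads with it, averaged 0.739 CPM.

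SLC3A2, the heavy chain (ENSG00000168003, chromosome 11, 62856102 to 62888875), was also highest in hypoxia with BAY, over a narrower range, with group means from 96.9 to 180 CPM. It stood at 175, 179 and 188 CPM in hypoxia with BAY, against 105, 109 and 118 CPM in hypoxic solvent, with no overlap. It rose with BAY in hypoxia by 0.70 on the log2 scale (SE 0.0676, edgeR adjusted p = 8.65e-07). Normoxic libraries held 101, 96.1 and 94.2 CPM with BAY and 115, 113, 99.8, 92.9 and 116 CPM with solvent, which overlap. The BAY effect was 0.83 more positive in hypoxia than in normoxia (SE 0.0909, edgeR adjusted p = 2.08e-05).

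On TGF-β1, SLC3A2 was 135, 134, 124, 124 and 132 CPM with BAY, against 123, 124, 114, 116 and 117 CPM without. That difference, 0.13 on the log2 scale, was not called (edgeR adjusted p = 0.0795), but it was called with the replicate block, at the same value of 0.13 (edgeR adjusted p = 0.00967), and without solvent replicate 4, at 0.13. It was also called within subset 1, at 0.11 (edgeR adjusted p = 0.0161), and within subset 2, at 0.13 (edgeR adjusted p = 0.0105). Subset 1 holds only replicates 1 and 2 of each TGF-β1 group. The subsets were drawn from these same data, so the subset calls are no separate evidence of a difference. TGF-β1 alone raised SLC3A2 by 0.14 (SE 0.0534, edgeR adjusted p = 0.0271). That call was lost without solvent replicate 3 or 4, at 0.12 and 0.09, and without TGF-β1 replicate 1 or 2, at 0.13 each. Without the TMM factor the SLC3A2 means were 114 CPM with TGF-β1 and 113 CPM in normoxic solvent, so this rise rests on that scaling.

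Per kilobase of annotated exon, SLC7A5 changed place with its partner. The ratio of SLC7A5 to SLC3A2 per length was 1.86 ± 0.0447 in hypoxia with BAY, against 0.841 ± 0.0221 in hypoxic solvent (SD, n = 3 each). It was 0.863 ± 0.0194 with TGF-β1 and BAY, against 0.754 ± 0.0454 with TGF-β1 (SD, n = 5 each). Normoxia gave 0.396 ± 0.0202 with BAY (SD, n = 3), against 0.399 ± 0.0285 in solvent (SD, n = 5). Among the 10 members, SLC7A5 had the highest level per length in hypoxia with BAY, 127 ± 7.83 CPM per kb. In normoxic solvent it ranked 5 of 10, at 16.0 ± 0.507 CPM per kb, below SLC38A2 at 82.4 ± 3.00 and SLC1A5 at 49.0 ± 2.80 CPM per kb.

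**Figure D1:**
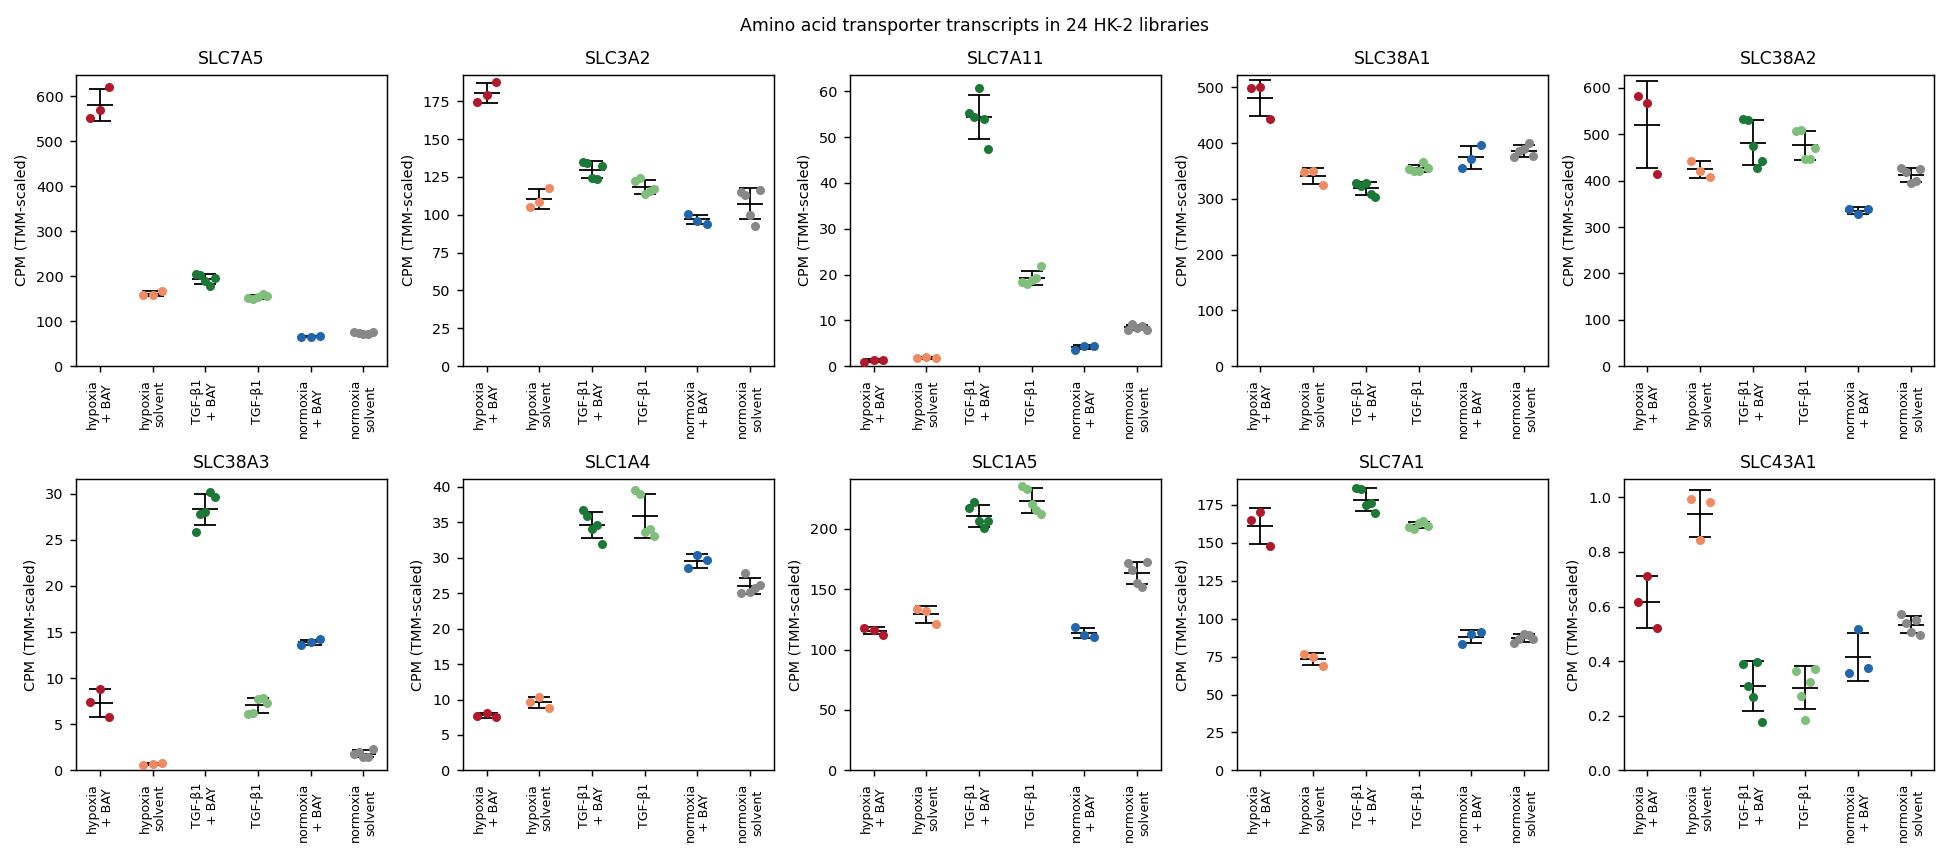
Levels of the 10 transporter transcripts in CPM (linear axes from 0) in each of 24 libraries, by group, points in replicate order, with the group mean and SD as bars. SLC7A5 in hypoxia with BAY lies at 552 to 621 CPM, above every other library, whereas SLC7A11 and SLC38A3 are highest with TGF-β1 and BAY.

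Markers of other cell types were set beside these levels. The summed level of 6 fibroblast markers was 223 to 242 CPM in hypoxia with BAY, 124 to 131 in hypoxic solvent, 263 to 284 with TGF-β1 and BAY, 286 to 299 with TGF-β1, 163 to 170 in normoxia with BAY and 110 to 134 in normoxic solvent. COL1A1, at 111 CPM over the 24 libraries, and LUM, at 90.5 CPM, carried most of it, 4 of 6 markers passed 1 CPM, and COL1A2, a defining fibroblast collagen, stood at 0.00993 CPM. The immune list, 1 of 5 over 1 CPM, was 220 to 253 CPM in hypoxia with BAY and 194 to 208 CPM in hypoxic solvent through CD68, while PTPRC stood at 0.0224 CPM and CD3E was listed at 0. The fibroblast sum was higher with BAY in hypoxia, as SLC7A5 was, but also higher with BAY in normoxia and lower with BAY on TGF-β1, unlike SLC7A5, and its part in the results was not tested. In such bulk RNA, fewer cells of a kind and less RNA per cell cannot be told apart.

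SLC7A1 (ENSG00000139514, chromosome 13, 29509410 to 29595688) encodes CAT1, the main carrier of arginine, lysine and ornithine in many cells. It stood at 165, 170 and 148 CPM in hypoxia with BAY, against 76.5, 74.8 and 68.9 CPM in hypoxic solvent, and rose by 1.13 on the log2 scale (SE 0.0584, edgeR adjusted p = 1.06e-09). In normoxia BAY left it at 83.4, 89.7 and 91.5 CPM, against 83.8, 86.7, 89.8, 89.4 and 86.5 CPM in solvent, a difference of 0.03 with a 95% interval from -0.07 to 0.14. The 2 BAY effects differed by 1.09 (SE 0.0782, edgeR adjusted p = 3.24e-07). SLC7A1 was the only member besides SLC7A5 with a BAY effect in hypoxia more than 1 log2 unit above that in normoxia.

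TGF-β1 raised SLC7A1 to 160, 159, 163, 164 and 161 CPM, against 87.2 ± 2.43 CPM in normoxic solvent (SD, n = 5; log2 fold change 0.89, SE 0.0314, edgeR adjusted p = 2.40e-14). BAY on TGF-β1 added 0.14 (SE 0.0311, edgeR adjusted p = 0.00175), with 169 to 186 CPM, above every library with TGF-β1 alone. Hypoxia in solvent lowered it by a small amount (log2 fold change -0.25, SE 0.0523, edgeR adjusted p = 0.000662). With BAY present hypoxia raised it by 0.85 (SE 0.0580, edgeR adjusted p = 3.78e-09).

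SLC7A11 (ENSG00000151012, chromosome 4, 138164097 to 138242349), the cystine and glutamate exchanger xCT, had the widest range of the 10, with group means from 1.22 to 54.3 CPM. It stood at 0.954, 1.30 and 1.41 CPM in hypoxia with BAY and at 1.70, 2.05 and 1.73 CPM in hypoxic solvent. With TGF-β1 and BAY it stood at 55.2, 54.5, 60.7, 54.0 and 47.4 CPM, against 18.5, 18.0, 18.7, 19.3 and 21.8 CPM with TGF-β1. Normoxic libraries held 3.57, 4.43 and 4.49 CPM with BAY, against 7.90, 9.20, 8.41, 8.81 and 7.92 CPM in solvent. No neighbouring groups overlapped.

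The direction of the BAY effect on SLC7A11 was opposite with and without TGF-β1. SLC7A11 fell with BAY in normoxia (log2 fold change -1.0, SE 0.123, edgeR adjusted p = 8.36e-06) and in hypoxia (-0.58, SE 0.144, edgeR adjusted p = 0.0045). It rose with BAY on TGF-β1 by 1.50 (SE 0.0721, edgeR adjusted p = 3.41e-11). The tests in normoxia and in hypoxia each share solvent libraries with the comparison by which SLC7A11 was chosen. Neither is independent of that choice. The difference between the BAY effects on TGF-β1 and in normoxia was 2.51 (SE 0.117, edgeR adjusted p = 6.44e-11), the largest of the 10 members. TGF-β1 alone raised SLC7A11 by 1.19 (SE 0.0736, edgeR adjusted p = 7.81e-11). This test and the difference of 2.51 also use the normoxic solvent libraries, so they are not independent of that choice either. The overlapping transcript SLC7A11-AS1 averaged 0.0184 CPM.

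The SLC38 genes encode sodium-coupled carriers of small neutral amino acids. SLC38A3 (SNAT3; ENSG00000188338, chromosome 3, 50205246 to 50221486) was higher with BAY in every setting. It stood at 7.37, 8.86 and 5.82 CPM in hypoxia with BAY, against 0.599, 0.704 and 0.784 CPM in hypoxic solvent. Normoxia gave 13.6, 13.9 and 14.2 CPM with BAY, against 1.74, 1.95, 1.48, 1.49 and 2.38 CPM in solvent. These 2 differences, 10.5-fold and 7.80-fold, are among those for which the gene was chosen.

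The other comparisons of SLC38A3 were tested. Only that of TGF-β1 with BAY against TGF-β1 alone shares no libraries with the comparisons by which the gene was chosen. The tests of TGF-β1 against solvent and of hypoxia do share them and are not independent of that choice. With TGF-β1 and BAY it reached 25.9, 27.8, 28.0, 30.1 and 29.6 CPM, against 6.10, 6.26, 7.78, 7.83 and 7.35 CPM with TGF-β1 alone, a rise of 2.00 on the log2 scale (SE 0.104, edgeR adjusted p = 8.81e-11). TGF-β1 itself raised it by 1.97 (SE 0.110, edgeR adjusted p = 1.81e-11). Hypoxia lowered it in solvent (log2 fold change -1.37, SE 0.170, edgeR adjusted p = 3.60e-06) and with BAY (-0.94, SE 0.162, edgeR adjusted p = 0.000107). The highest group mean was thus 40.7 times the lowest, and both extremes lay outside the ranges of the other groups.

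SLC38A1 (SNAT1; ENSG00000111371, chromosome 12, 46183063 to 46270017) and SLC38A2 (SNAT2; ENSG00000134294, chromosome 12, 46358189 to 46372867), which is known to be induced when amino acids are scarce, varied far less. SLC38A1 stood at 498, 500 and 443 CPM in hypoxia with BAY, against 349, 350 and 325 CPM in hypoxic solvent, and rose by 0.49 (SE 0.0563, edgeR adjusted p = 5.50e-06). On TGF-β1 it fell with BAY by 0.15 on the log2 scale, with 304 to 329 CPM, against 350 to 366 CPM with TGF-β1 alone (SE 0.0316, edgeR adjusted p = 0.00104). In normoxia its BAY effect of -0.02 was not called, and the BAY effects in hypoxia and normoxia differed by 0.51 (SE 0.0756, edgeR adjusted p = 0.000293).

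SLC38A2 stood at 583, 566 and 413 CPM in hypoxia with BAY, against 443, 422 and 408 CPM in hypoxic solvent. The groups overlapped through BAY replicate 3. The rise of 0.29 (SE 0.0911, edgeR adjusted p = 0.0205) was lost without BAY replicate 1 or 2, at 0.20 and 0.23, and without solvent replicate 2 or 3, at 0.29 and 0.26. In normoxia SLC38A2 fell with BAY to 339, 327 and 340 CPM, against 413 ± 15.0 CPM in solvent (SD, n = 5; log2 fold change -0.28, SE 0.0821, edgeR adjusted p = 0.013). That fall was not called without BAY replicate 2, at -0.27, or against subset 2 of the solvent libraries, at -0.24. With TGF-β1 it rose to 508, 510, 446, 447 and 471 CPM (log2 fold change 0.21, SE 0.0579, edgeR adjusted p = 0.00466), and adding BAY gave 533, 530, 475, 428 and 442 CPM, which overlap.

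The SLC1 members exchange neutral amino acids with sodium, SLC1A4 (ASCT1) chiefly alanine, serine and cysteine and SLC1A5 (ASCT2) also glutamine. SLC1A4 (ENSG00000115902, chromosome 2, 64988477 to 65023865) was low in hypoxia, at 7.66, 8.15 and 7.48 CPM with BAY and 9.62, 10.4 and 8.86 CPM with solvent. Normoxic libraries held 28.5, 30.4 and 29.7 CPM with BAY and 25.0, 27.8, 25.2, 25.7 and 26.2 CPM with solvent, all above the hypoxic ones. Hypoxia lowered it with BAY (log2 fold change -1.95, SE 0.0623, edgeR adjusted p = 8.52e-13) and in solvent (-1.43, SE 0.0566, edgeR adjusted p = 8.13e-12).

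BAY moved SLC1A4 in opposite directions under the 2 oxygen levels, -0.31 in hypoxia and 0.20 in normoxia, both called (edgeR adjusted p = 0.000855 and 0.00495). The difference of -0.52 was called as well (SE 0.0812, edgeR adjusted p = 0.000482). TGF-β1 raised SLC1A4 by 0.46 (SE 0.0531, edgeR adjusted p = 3.87e-07), and BAY on TGF-β1 gave -0.05, which was not called. The libraries held 36.7, 35.8, 34.1, 34.6 and 31.9 CPM with TGF-β1 and BAY and 39.5, 39.0, 33.6, 34.1 and 33.1 CPM with TGF-β1, which overlap.

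SLC1A5 (ENSG00000105281, chromosome 19, 46774883 to 46788594) stood at 118, 117 and 112 CPM in hypoxia with BAY, against 134, 132 and 121 CPM in hypoxic solvent. In normoxia it fell with BAY to 118, 112 and 111 CPM, against 171, 165, 155, 152 and 172 CPM in solvent (log2 fold change -0.50, SE 0.0438, edgeR adjusted p = 2.07e-07). The fall in hypoxia was smaller, -0.16 (SE 0.0484, edgeR adjusted p = 0.0149), and was not called without BAY replicate 3, without solvent replicate 1 or 2, or without replicate 2 or 3 of the normoxic BAY group. TGF-β1 raised SLC1A5 to 235, 233, 220, 216 and 212 CPM (log2 fold change 0.45, SE 0.0419, edgeR adjusted p = 2.39e-08). BAY on TGF-β1 gave 217, 222, 206, 200 and 207 CPM, a difference of -0.09, not called (edgeR adjusted p = 0.143) but called with the replicate block at -0.09 (edgeR adjusted p = 0.0349). It was also called within subset 1, at -0.10 (edgeR adjusted p = 0.0315), and within subset 2, at -0.08 (edgeR adjusted p = 0.0429). The limits given for the subset calls of SLC3A2 hold here too.

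SLC43A1 (LAT3; ENSG00000149150, chromosome 11, 57484534 to 57515786), a carrier of large neutral amino acids that needs no heavy chain, stayed under 1 CPM in every library. It stood at 0.618, 0.712 and 0.521 CPM in hypoxia with BAY, against 0.995, 0.842 and 0.983 CPM in hypoxic solvent and 0.534 ± 0.0318 CPM in normoxic solvent (SD, n = 5). Normoxic BAY libraries held 0.356, 0.518 and 0.374 CPM, and the TGF-β1 groups averaged 0.308 ± 0.0918 CPM with BAY and 0.303 ± 0.0779 CPM without (SD, n = 5 each). Hypoxia raised it in solvent by 0.82 (SE 0.164, edgeR adjusted p = 0.000449), and TGF-β1 lowered it (log2 fold change -0.81, SE 0.220, edgeR adjusted p = 0.00355), a fall not called in subset 2, at -0.84. The fall with BAY in hypoxia, -0.61 (edgeR adjusted p = 0.0171), was not called when all genes or all 24 libraries entered the fit, without BAY replicate 3, at -0.51, or without solvent replicate 1, at -0.57. The rise with hypoxia in the presence of BAY, 0.55 (edgeR adjusted p = 0.0221), was lost without replicate 1 or 3 of the normoxic BAY group, at 0.49 and 0.52, and without replicate 2 of the hypoxic BAY group, at 0.43.

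Counted over the members, BAY in hypoxia raised 4 of the 8 that could be tested (SLC3A2, SLC7A1, SLC38A1 and SLC38A2) and lowered the other 4. SLC7A11, among those lowered, was chosen by its level in hypoxia. In that comparison 37.9% of all 21316 genes were called, 16.5% higher and 21.4% lower. Over all 10 members, 5 lay wholly above solvent, 4 wholly below and SLC38A2 overlapped, where the groups did not overlap for 48.7% of genes. The median log2 fold change was 0.39 over all 10 members and -0.02 over all genes. This median and the count above solvent include SLC7A5 and SLC38A3, chosen in part by this comparison, at 1.85 and 3.40. They are therefore descriptions and no evidence of a shift of the members. BAY in normoxia raised 1 of 8 (SLC1A4), lowered 3 and left 4 not called, where 43.9% of genes were called, 20.6% higher and 23.3% lower. The member median was -0.13, and 6 of 10 members did not overlap, where 45.0% of genes did not. These values also include SLC7A5 and SLC38A3, chosen in part by this comparison. The BAY effect was more positive in hypoxia for 5 of 7 tested members and more negative for SLC1A4, where 16.8% of genes were called in either direction 8.83% as more positive and 7.92% as more negative. The call for SLC38A2 was lost against subset 2 of the normoxic libraries, at 0.54.

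On TGF-β1, BAY raised SLC7A5, SLC7A11, SLC38A3 and SLC7A1, lowered SLC38A1 and left 5 of 10 not called, where 29.5% of 21639 genes were called, 13.9% higher and 15.6% lower. The member median was 0.08, and 5 of 10 members did not overlap, where 22.1% of genes did not. The BAY effect on TGF-β1 was more positive than in normoxia for 4 of 8 tested members (SLC3A2, SLC7A11, SLC38A2 and SLC1A5) and more negative for SLC1A4, where 20.7% of genes were called, 13.7% more positive and 7.08% more negative. SLC7A11, among these 4, was chosen in part by its normoxic solvent libraries. The call for SLC3A2, at 0.28, was lost in subset 2 of the normoxic libraries, at 0.12, and without replicate 2 or 3 of normoxic BAY, at 0.27 and 0.26, and that for SLC38A2, at 0.31, without normoxic BAY replicate 2, at 0.30, and with all 24 libraries in 1 fit, at 0.32. The call for SLC1A4, at -0.24, was lost without any 1 of the normoxic BAY libraries, solvent replicates 1, 3, 4 and 5, TGF-β1 replicates 1 and 2, or TGF-β1 with BAY replicates 3, 4 and 5, at -0.26 to -0.20, and with DESeq2 size factors or no filter on low counts, at -0.24 each.

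**Figure D2:**
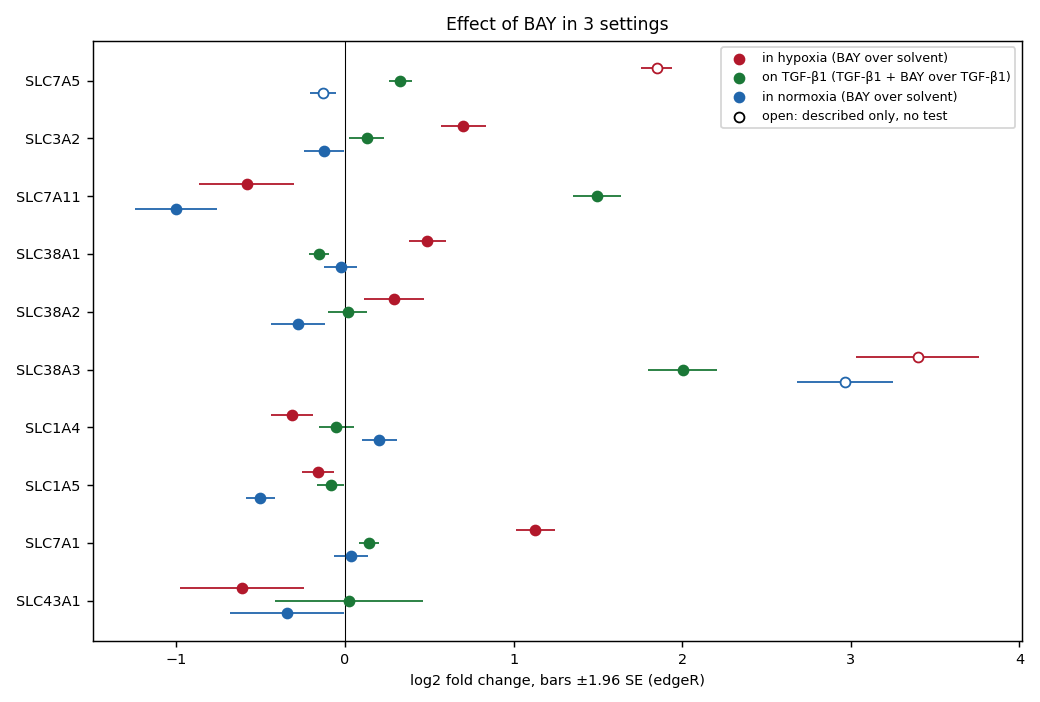
Log2 fold change with BAY for each of the 10 genes in hypoxia, on TGF-β1 and in normoxia, with bars for the 95% interval; open points are the comparisons for which a gene was chosen. SLC7A5, SLC3A2, SLC38A1, SLC38A2, SLC38A3 and SLC7A1 have their highest BAY effect in hypoxia, and SLC7A11 lies right of 0 on TGF-β1 and left of it in hypoxia and in normoxia.

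TGF-β1 raised 8 of the 10 members and lowered SLC38A1 and SLC43A1, where 62.0% of genes were called, 29.5% higher and 32.5% lower. The member median was 0.46, against -0.04 over all genes, and 9 of 10 members did not overlap, where 50.8% of genes did not. SLC7A5, SLC38A3 and SLC7A11 were chosen in part by the normoxic solvent libraries, the baseline here. The count and the median are therefore not independent of that choice. The rises ran from 0.14 (SLC3A2) to 1.97 (SLC38A3). Without the TMM factor every value of this comparison shifts by -0.13, near the size of the SLC3A2 rise. SLC38A1 fell by 0.12, and that fall was not called in subset 1, at -0.07.

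Hypoxia in solvent lowered 5 of 8 tested members (SLC38A1, SLC38A3, SLC1A4, SLC1A5 and SLC7A1), raised SLC43A1 and left SLC3A2 and SLC38A2 not called, where 60.8% of genes were called, 29.2% higher and 31.6% lower. Of all 10 members 8 did not overlap, where 57.2% of genes did not. SLC7A5 and SLC7A11, chosen in part by this comparison, are among these members. SLC38A3, lowered here and with BAY present, was chosen by comparisons that share these libraries. With BAY present hypoxia raised 5 of 9, lowered 3 and left SLC1A5 not called, where 61.0% of genes were called, 28.4% higher and 32.6% lower. SLC7A11, among those lowered, was chosen by its level in hypoxia. Here 9 of 10 members, the chosen SLC7A5 included, did not overlap, where 69.1% of genes did not. SLC38A1 and SLC7A1 were called lower in solvent and higher with BAY. The hypoxia, BAY and TGF-β1 comparisons share normoxic libraries, so their values are not independent of each other. SLC3A2 in hypoxic solvent, 0.05 higher than in normoxia, was called at 0.21 against subset 2 of the normoxic libraries (edgeR adjusted p = 0.00489).

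**Figure D3:**
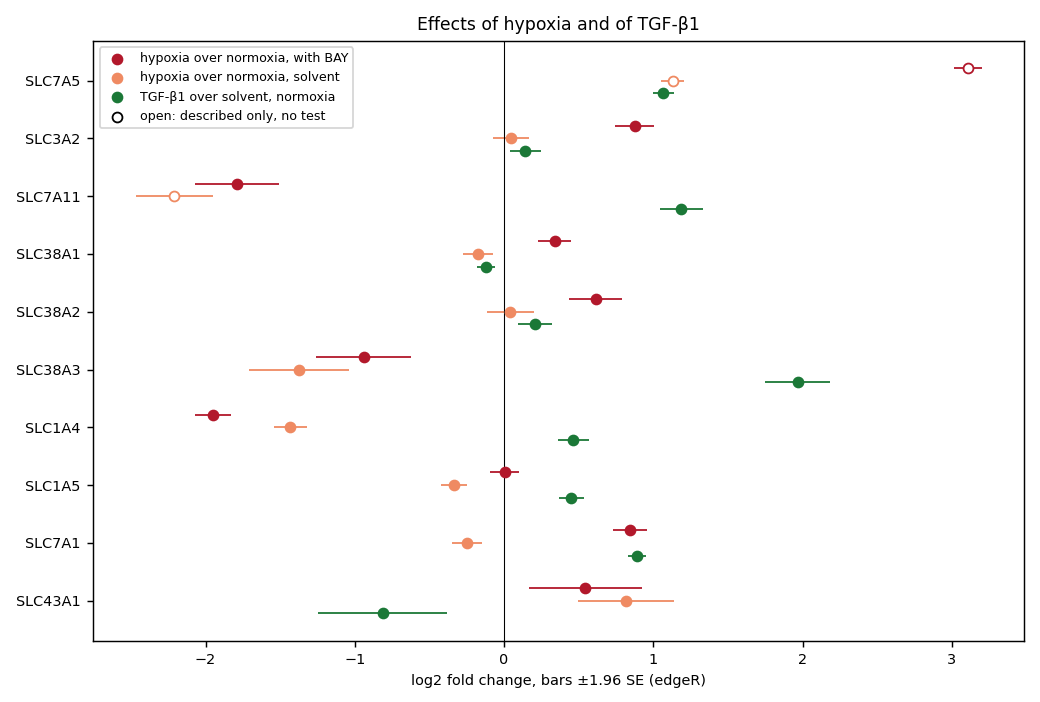
Log2 fold change with hypoxia in the presence of BAY, with hypoxia in solvent and with TGF-β1 in normoxia for the 10 genes, with bars for the 95% interval; open points were not tested. SLC7A1 lies at 0.85 in hypoxia with BAY and at -0.25 in solvent, and SLC7A11, SLC38A3, SLC1A4 and SLC1A5 lie right of 0 with TGF-β1 and left of it with hypoxia in solvent.

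Across the 24 libraries, which are the same cultures for every gene, SLC7A5 followed SLC3A2 (Pearson r = 0.925 of log2 CPM) and, less closely, SLC38A2 (0.700) and SLC7A1 (0.627). SLC7A11 followed SLC1A5 (0.882) and SLC1A4 (0.841), and its r with SLC7A5 was -0.15. Groups make up most of this variation, so these values describe 6 conditions rather than 24 independent points.

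Of 11432 genes with at least 5 CPM on average, PEX19, a peroxisome assembly factor, was closest to SLC7A5 (r = 0.969), before PLEKHM2 (0.962), RCE1 (0.952), TRAM2 (0.952) and POFUT2 (0.949). Their amplitude was smaller. PEX19 averaged 106 ± 3.47 CPM in hypoxia with BAY, against 82.9 ± 2.20 CPM in hypoxic solvent (SD, n = 3 each), and TRAM2 134.6 ± 2.90 against 85.0 ± 1.79 CPM. Closest to SLC38A3 were LIPG, an endothelial-type lipase (r = 0.978), LINC02593 (0.970), AREG, an EGF receptor ligand (0.968), EME1 (0.966) and SLC36A4, itself an amino acid carrier (0.960). AREG stood at 507 ± 14.8 CPM with TGF-β1 and BAY, against 213 ± 9.80 CPM with TGF-β1 (SD, n = 5 each).

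**Figure D4:**
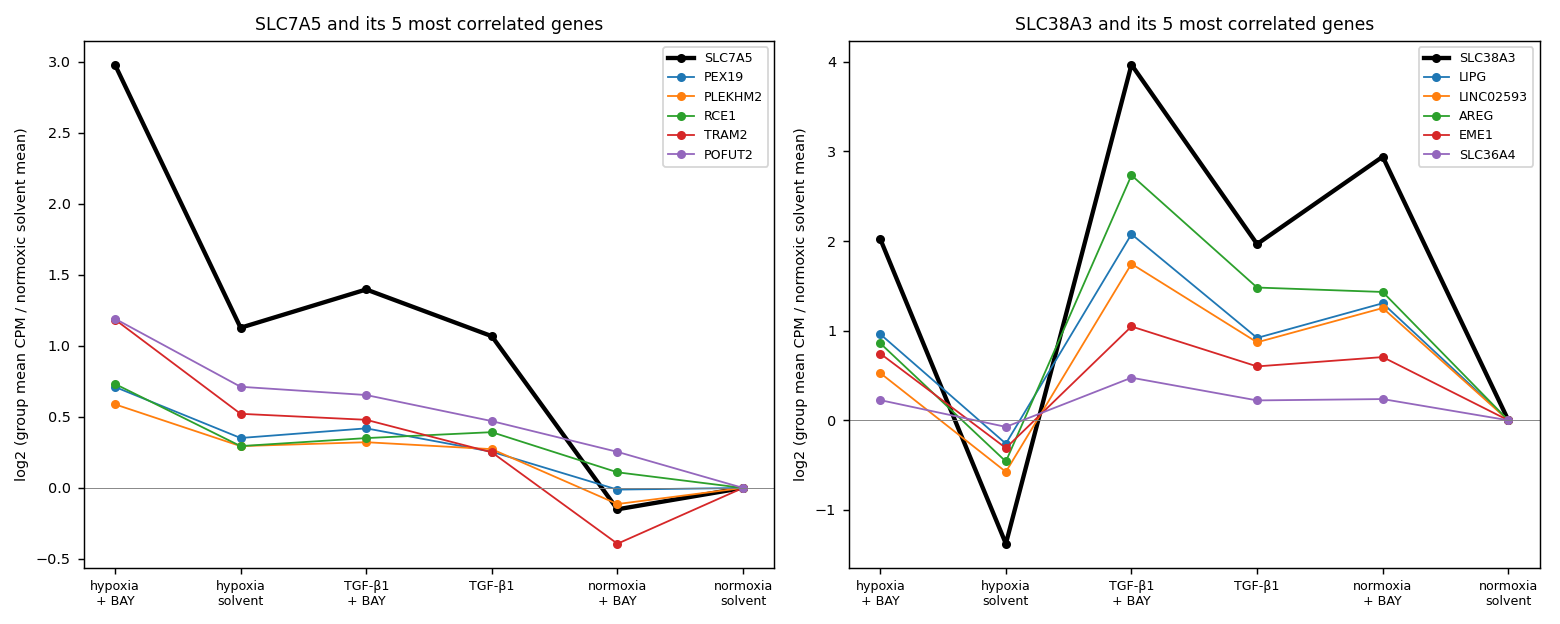
Group means of CPM relative to the normoxic solvent mean, on a log2 axis, for SLC7A5 (left, black) and SLC38A3 (right, black) and the 5 genes with the highest Pearson r to each over 24 libraries. The genes of the left panel are highest in hypoxia with BAY and those of the right panel with TGF-β1 and BAY, while the order of the lower groups differs between genes.

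Among 25 other plasma membrane amino acid transporter genes, 20 could be tested. Here and below, rises and falls were called by edgeR, counts stand against the shares of all genes called that are given above for each comparison, and the medians compare with -0.02 for BAY in hypoxia and -0.04 for TGF-β1 over all genes. BAY in hypoxia raised 3, lowered 6 and left 11 not called, with a median of -0.16. The cationic carrier SLC7A2 reached 146 ± 10.3 CPM in hypoxia with BAY, against 33.3 ± 4.70 CPM in hypoxic solvent (SD, n = 3 each; log2 fold change 2.13), and the taurine carrier SLC6A6 421 ± 13.6 against 144 ± 1.65 CPM (1.54). SLC38A5, a glutamine carrier, fell to 3.21 ± 0.306 CPM, against 8.50 ± 0.348 CPM (-1.41). SLC43A2 (LAT4) was low, at 1.02 ± 0.394 CPM in hypoxia with BAY and 0.936 ± 0.392 CPM in hypoxic solvent, and was not called (0.12). Its BAY effect there was 1.82 above that in normoxia, where its level was lower with BAY. It averaged 0.601 ± 0.106 CPM with BAY (SD, n = 3) and 1.98 ± 0.255 CPM in solvent (SD, n = 5) in normoxia.

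TGF-β1 raised 5 of these 20 and lowered 8, where 29.5% of all genes were called higher and 32.5% lower. SLC38A5 rose to 36.8 ± 4.55 CPM, against 7.77 ± 0.297 CPM in normoxic solvent (SD, n = 5 each; log2 fold change 2.24). SLC38A4 fell by 5.43 on the log2 scale, to 0.0560 ± 0.0261 CPM, against 2.49 ± 0.699 CPM. SLC3A1, the heavy chain of the cystine carrier of the tubule brush border, fell by 4.14, and SLC16A10, an aromatic amino acid carrier, by 2.18.

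Several transporters belong to the ATF4 response to amino acid shortage. Whether this program acts on them here was not tested. Genes of this program were more often lower than higher with BAY, in hypoxia and in normoxia. In hypoxia BAY lowered 12 of 23 tested and raised 4, with a median of -0.29. There 21.4% of all genes were called lower and 16.5% higher. In normoxia BAY lowered 14 and raised 2, with a median of -0.34 (0.00408 over all genes). The BAY effect was more positive in hypoxia than in normoxia for 7 and more negative for 2, with a median of 0.18. Of all genes 8.83% were called more positive and 7.92% more negative. ASNS, asparagine synthetase, fell to 3.86 ± 0.501 CPM in hypoxia with BAY, against 7.39 ± 0.443 CPM in hypoxic solvent, and STC2 to 122 ± 7.40 against 269 ± 34.3 CPM (SD, n = 3 each). ATF3 rose to 45.3 ± 2.69 against 8.09 ± 0.616 CPM, and GDF15, a secreted stress factor, by 1.06 on the log2 scale. TGF-β1 raised 7 and lowered 11 of the 23. EIF4EBP1, a translation repressor, rose by 1.13 while the serine synthesis genes PSAT1 and PSPH fell by 1.04 and 0.97. NUPR1 fell by 1.50 at a level under 0.2 CPM in every group mean.

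Cytosolic aminoacyl-tRNA synthetases, which load amino acids onto tRNA, were mostly higher with TGF-β1. They were mostly lower with BAY, in hypoxia, on TGF-β1 and in normoxia. TGF-β1 raised 15 of 19 tested and lowered 2, with a median log2 fold change of 0.41. VARS1 rose to 131 ± 5.50 CPM with TGF-β1, against 86.5 ± 8.44 CPM in normoxic solvent, and LARS1, the leucine enzyme, to 175 ± 4.13 against 117 ± 2.00 CPM (SD, n = 5 each). HARS1 and SARS1 rose by 0.56 and 0.53. BAY lowered 14 of 19 in hypoxia and left 5 not called, with a median of -0.18. On TGF-β1 it lowered 14 and raised 1, with a median of -0.16 (0.00597 over all genes). In normoxia it lowered 18 and raised 1, with a median of -0.32 (0.00408 over all genes). MARS1 fell to 26.7 ± 2.24 CPM in hypoxia with BAY, against 38.8 ± 0.748 CPM in hypoxic solvent (SD, n = 3 each), and FARSB, WARS1 and LARS1 fell by 0.47, 0.37 and 0.35.

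Of 15 genes of glutamine and glutamate metabolism, BAY in hypoxia lowered 8 and raised 1, with a median of -0.27. BAY in normoxia lowered 11 and raised 2, with a median of -0.31 (0.00408 over all genes). The next values are for BAY in hypoxia. CAD fell by 0.48, GPT2 by 0.45 and GOT2 by 0.43. TGF-β1 raised 8 and lowered 5, among them the proline oxidase PRODH (-3.85), GLS2 (-2.16), GOT1 (-0.81) and, upward, PYCR1 (0.48).

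Regulators known from other work to act on SLC7A5 or its relatives were counted as well. BAY in hypoxia raised 9 of 16 tested and lowered 4, with a median of 0.18. EPAS1, the HIF-2α subunit known to raise SLC7A5 in renal carcinoma cells, stood at 945 ± 25.1 CPM in hypoxia with BAY, against 412 ± 17.2 CPM in hypoxic solvent (SD, n = 3 each; log2 fold change 1.19). Its BAY effect was 1.15 more positive in hypoxia than in normoxia. CREM, a cyclic nucleotide responsive repressor and activator, rose by 1.37, NFE2L2, the regulator of SLC7A11, by 0.83, and MYC fell by 0.60. Unlike that of EPAS1, these changes also accompanied BAY in normoxia. CREM averaged 31.5 ± 0.791 CPM there, against 10.6 ± 0.812 CPM in solvent. NFE2L2 averaged 226 ± 5.14 against 114 ± 2.42 CPM, and MYC 98.5 ± 1.79 against 208 ± 20.2 CPM (SD, n = 3 with BAY and 5 in solvent). TGF-β1 raised 7 and lowered 7 of the 16, with MLXIP at 1.05, EPAS1 at -0.91, MXI1 at -0.48 and BACH1 at -0.46. EPAS1 was thus lower with TGF-β1 while SLC7A5 was higher, and whether any regulator acts on these genes here was not tested.

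**Figure D5:**
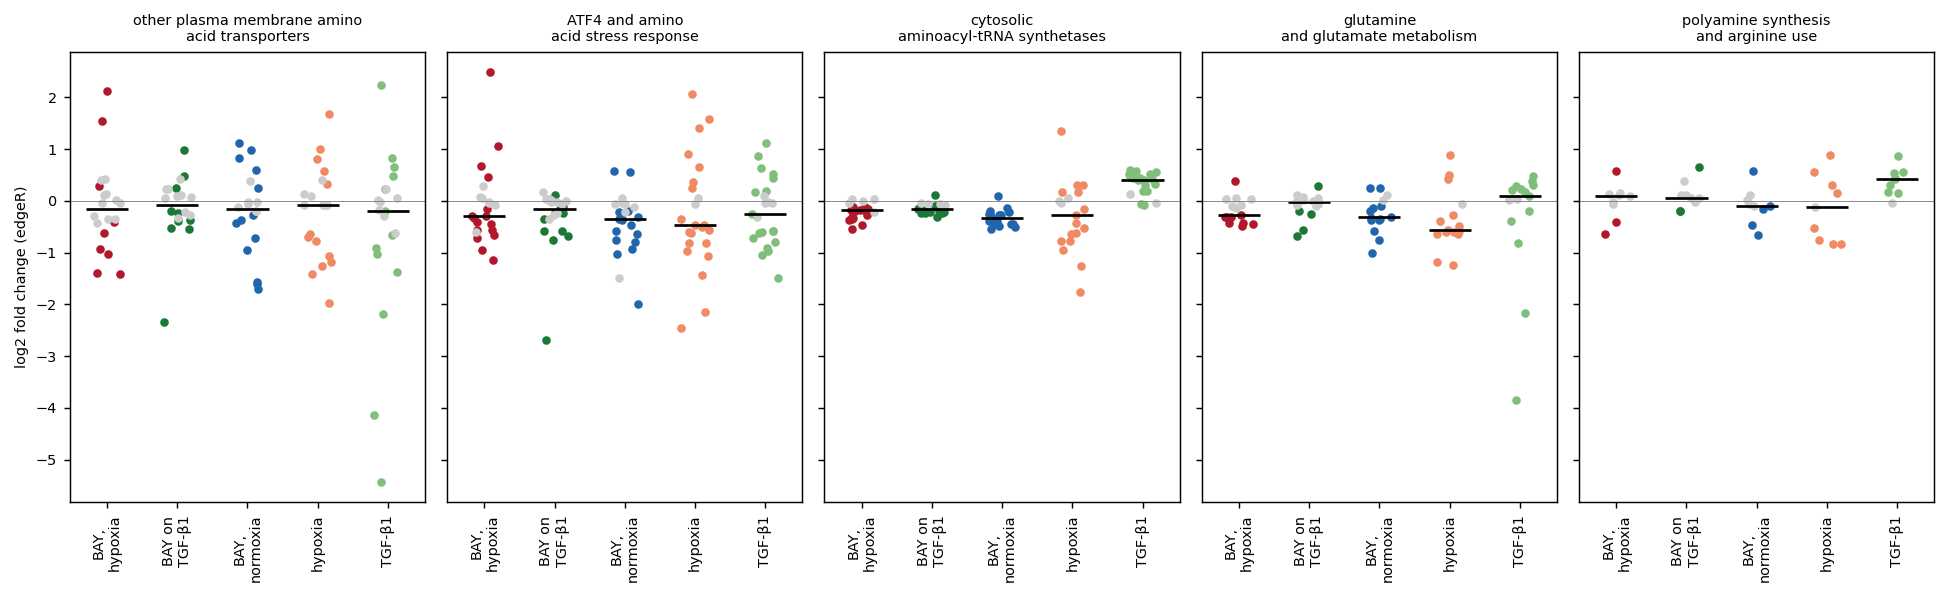
Log2 fold changes of the tested genes of 5 lists (1 panel each) in 5 comparisons; coloured points were called by edgeR, grey points were not, and black lines are medians. The tRNA synthetases lie mostly above 0 with TGF-β1, where 15 of 19 rose. They lie mostly below 0 with BAY in hypoxia, where 14 of 19 fell, on TGF-β1, where 14 fell, and in normoxia, where 18 fell.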

How the data were processed

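Estimated counts for 65180 Ensembl genes in 24 libraries were deposited by the authors in 1 table, made with Salmon on GRCh38 (hg38) per the submitters' processing notes, which also name DESeq2. The sources used here give no versions, annotation release or strand setting. Of the values above 0, 48.6% were not whole numbers, so the deposited estimated counts were rounded. IDs without a symbol (6261, holding 4.36% of counts) stayed in library sizes and tests. Totals ran from 78862528 to 105571250, and all replicate pairs differed by more than sampling noise.

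In R 4.3.3, edgeR 4.0.16 scaled libraries by TMM, kept genes by filterByExpr and ran the robust quasi-likelihood test, 2-sided, on 14 libraries for oxygen and BAY (21316 genes) and 18 for TGF-β1 and BAY (21639 genes), which share 8 normoxic libraries. Benjamini-Hochberg adjustment covered every gene in a fit, with calls below 0.05. An approximate SE was derived from each log2 fold change and its F statistic, and 95% intervals assume a normal error. The fits were tested on simulated data with few changed genes and no subsets. The real data differ in both, so that test does not vouch for the calls here. CPM used TMM over all 24 libraries. Likeness and correlations used log2(CPM + 0.5).

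Members, gene lists and tests were chosen with earlier results of these data known. All members were named. Of each of 9 other lists, at most 4 called genes with the largest change for BAY in hypoxia or its interaction with oxygen, and 4 for TGF-β1, were named. The same replicate numbers deviated together in every pair for BAY in hypoxia (r from 0.123 to 0.157 over genes) and for BAY on TGF-β1 (0.247 to 0.484). The replicate block was therefore read as a possible pairing there, and not in the other comparisons. Different replicate numbers were not compared. In the TGF-β1 groups the same numbers also share a subset, so r there cannot tell a pairing from the subsets. Alternatives were DESeq2 1.42.0 as test or for size factors, voom in limma 3.58.1, no filter, 1 fit of all libraries, the block, each library left out, CPM without TMM and, chosen after seeing the data, either subset of normoxic libraries alone. Some named items are not reported here.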

Additional observations from a re-analysis of the deposited data

Results flagged for a closer look

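The BAY effect differed between settings for most members. The BAY effect in hypoxia minus that in normoxia was 0.83 for SLC3A2, 0.51 for SLC38A1, 0.57 for SLC38A2, 0.34 for SLC1A5 and 1.09 for SLC7A1, and it was -0.52 for SLC1A4, all on the log2 scale and all called by edgeR's interaction test. For SLC7A5 it was 1.98: all BAY libraries lay above solvent in hypoxia and below it in normoxia, and this difference was not tested because the gene was chosen for it.

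The BAY effect on TGF-β1 minus that in normoxia was 2.51 for SLC7A11, 0.43 for SLC1A5, 0.31 for SLC38A2, 0.28 for SLC3A2 and -0.24 for SLC1A4, each called by edgeR's interaction test. SLC7A11 was chosen in part by the normoxic solvent libraries used here. SLC7A5 had 0.48, with BAY libraries above TGF-β1 alone and below solvent in normoxia, and that difference was not tested.

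No library of a 5-library group stood apart from the rest of its group for any member, in 30 such groups examined.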

How the results depend on the processing

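Of the members' log2 fold changes, 1182 held with a library left out, where 34 lost a call, 6 gained one, 13 changed sign and 5 moved. Under the other alternatives 606 held, 12 lost a call, 8 gained one, 5 changed sign and 9 moved. For a tested comparison, held means the same direction and call. For an untested one it means the same direction and a shift below the SD within groups, and moved means a larger shift. The causes were not tested. With subset 1 of the normoxic libraries alone, the oxygen by BAY interaction called 5821 genes (3571 with all) and the TGF-β1 by BAY interaction 7100 (4487 with all), and the SLC7A5 interaction with oxygen was 2.03. With a library left out that interaction ran from 1.93 to 2.02. Leaving out the TMM factor shifts every log2 fold change by -0.18 for hypoxia with BAY, -0.13 for TGF-β1 and by less than 0.1 in the other comparisons.

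Values that changed sign were near 0 and not called in either form. With a library left out, SLC3A2 in hypoxic solvent ran from -0.00215 to 0.0930, SLC1A5 in hypoxia with BAY from -0.00612 to 0.0770, SLC38A1 and SLC7A1 with BAY in normoxia from -0.0766 to 0.000362 and from -0.00194 to 0.0625, and SLC43A1 and SLC38A2 with BAY on TGF-β1 from -0.110 to 0.176 and from -0.0236 to 0.0552. In subset 1 SLC3A2 in hypoxic solvent was -0.0319. In subset 2 SLC3A2 and SLC7A1 with BAY in normoxia were 0.0134 and -0.0180, and SLC38A2 and SLC43A1 with BAY on TGF-β1 were -0.0226 and -0.0638. SLC3A2 with BAY in normoxia was called at -0.23 in subset 1.

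With the replicate block, BAY on TGF-β1 called 7231 genes (6386 without) and SLC3A2 and SLC1A5 at 0.13 and -0.09, and the block changed no other call of a member. SLC43A1, under 1 CPM, is limited by depth, and its calls with BAY in hypoxia and with hypoxia in the presence of BAY were lost with no filter, at -0.61 and 0.55.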

Other observations

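Further gene lists around amino acid use were counted in the same fits. Of 30 genes of mTORC1 and its amino acid inputs, BAY in hypoxia raised 8 and lowered 8. CASTOR1, an arginine sensor, rose to 9.51 ± 1.58 CPM in hypoxia with BAY, against 4.38 ± 0.543 CPM in hypoxic solvent (SD, n = 3 each), and the leucine sensor family members SESN3 and SESN1 fell by 1.08 and 0.83 on the log2 scale. DDIT4, an mTORC1 inhibitor, rose by 0.58 with BAY in hypoxia, 1.20 less than in normoxia. TGF-β1 raised 10 and lowered 13 of the 30, with DEPTOR, an inhibitor within the complex, at 1.23 ± 0.386 CPM against 32.3 ± 3.47 CPM in normoxic solvent (SD, n = 5 each), RRAGD at -1.14, CASTOR1 at 1.40 and DDIT4 at 0.69.

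Of 16 genes of branched-chain amino acid breakdown, BAY in hypoxia raised 3 and lowered 5, and TGF-β1 raised 2 and lowered 11. The phosphatase PPM1K fell with BAY in hypoxia to 3.12 ± 0.408 CPM, against 5.25 ± 0.391 CPM in hypoxic solvent (SD, n = 3 each), and BCAT1, MCCC2 and BCAT2 fell by 1.35, 0.36 and 0.35. With TGF-β1, ACADSB, HIBADH, MCCC1 and AUH fell by 1.18, 0.70, 0.68 and 0.64. Of 13 genes of cysteine and glutathione metabolism, BAY in hypoxia raised 2 and lowered 7, and TGF-β1 raised 4 and lowered 7. CTH, which makes cysteine from cystathionine, rose with BAY in hypoxia to 30.7 ± 6.51 CPM, against 10.4 ± 0.0456 CPM in hypoxic solvent (SD, n = 3 each). With TGF-β1, GCLM and TXNRD1 rose by 0.91 and 0.46, and GGT1 and MGST1 fell by 1.21 and 0.88.

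Of 9 genes of polyamine synthesis and arginine use, TGF-β1 raised 8 and left 1 not called, with a median of 0.43. SRM, spermidine synthase, reached 103 ± 3.45 CPM with TGF-β1, against 56.5 ± 2.02 CPM in normoxic solvent (SD, n = 5 each), and OAZ1, SAT1 and SMS rose by 0.56, 0.54 and 0.45. BAY in hypoxia raised ARG2 (0.58) and lowered 2, SRM (-0.64) among them.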
